A study of Mus musculus with 4 samples.

Results

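The genes described here are 9 mouse genes that bring fatty acids into cells and carry them inside: Lpl, Vldlr, Cd36, Slc27a1, Slc27a3, Slc27a4, Fabp3, Fabp4 and Fabp5. They were chosen as a family and matched by gene symbol, each to 1 identifier, and are 9 of the 52636 genes in the count table. All 9 had enough reads to be tested. The 2 sesaminol libraries came from C2C12 cells in adipogenic medium with 50 µM sesaminol, a lignan of sesame seed, and the 2 control libraries from C2C12 cells in the same medium without it, for up to 8 days. C2C12 is an established mouse myoblast line, so both groups are the same line in the same fat-promoting medium and differ by the compound. The labels do not say whether replicates were separate cultures, and the spread behind the p-values may therefore be technical.

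Fatty acids reach a muscle cell by several routes. Lipoprotein lipase releases them from circulating triglyceride, the VLDL receptor takes up triglyceride-rich particles, CD36 passes free fatty acids across the membrane, and the fatty acid transport proteins of the Slc27 family trap them by joining them to coenzyme A. Inside the cell the fatty acid binding proteins carry them to mitochondria, lipid droplets and the nucleus.

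Slc27a1 was higher and Cd36 lower in the sesaminol libraries, and these were the only members that passed the test across all genes. Slc27a1, the fatty acid transport protein typical of muscle and fat, was the most abundant member per length in both groups. It had 275 and 235 CPM (counts per 1e6 counts of the scaled library) in sesaminol replicates 1 and 2, against 117 and 131 CPM in control replicates 1 and 2. Cd36, the membrane fatty acid translocase, had 4.82 and 6.41 CPM with sesaminol, against 11.9 and 15.4 CPM in controls. In both genes each sesaminol library lay outside the range of the controls.

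Of 9 members tested, 1 rose, 1 fell and 7 did not pass at an adjusted p under 0.05 (edgeR quasi-likelihood test, Benjamini-Hochberg over 18998 genes). The same test called 5.95% of all genes tested, 2.72% as rises and 3.24% as falls. The 2 groups did not overlap for 6 members, 2 higher and 4 lower with sesaminol, beside 47% of all genes tested. The median log2 fold change was -0.22 over the members and 0.02 over all genes tested. With 2 libraries a group an exact permutation of a single gene's values cannot give a two-sided p below 0.333.

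**Figure D1:**
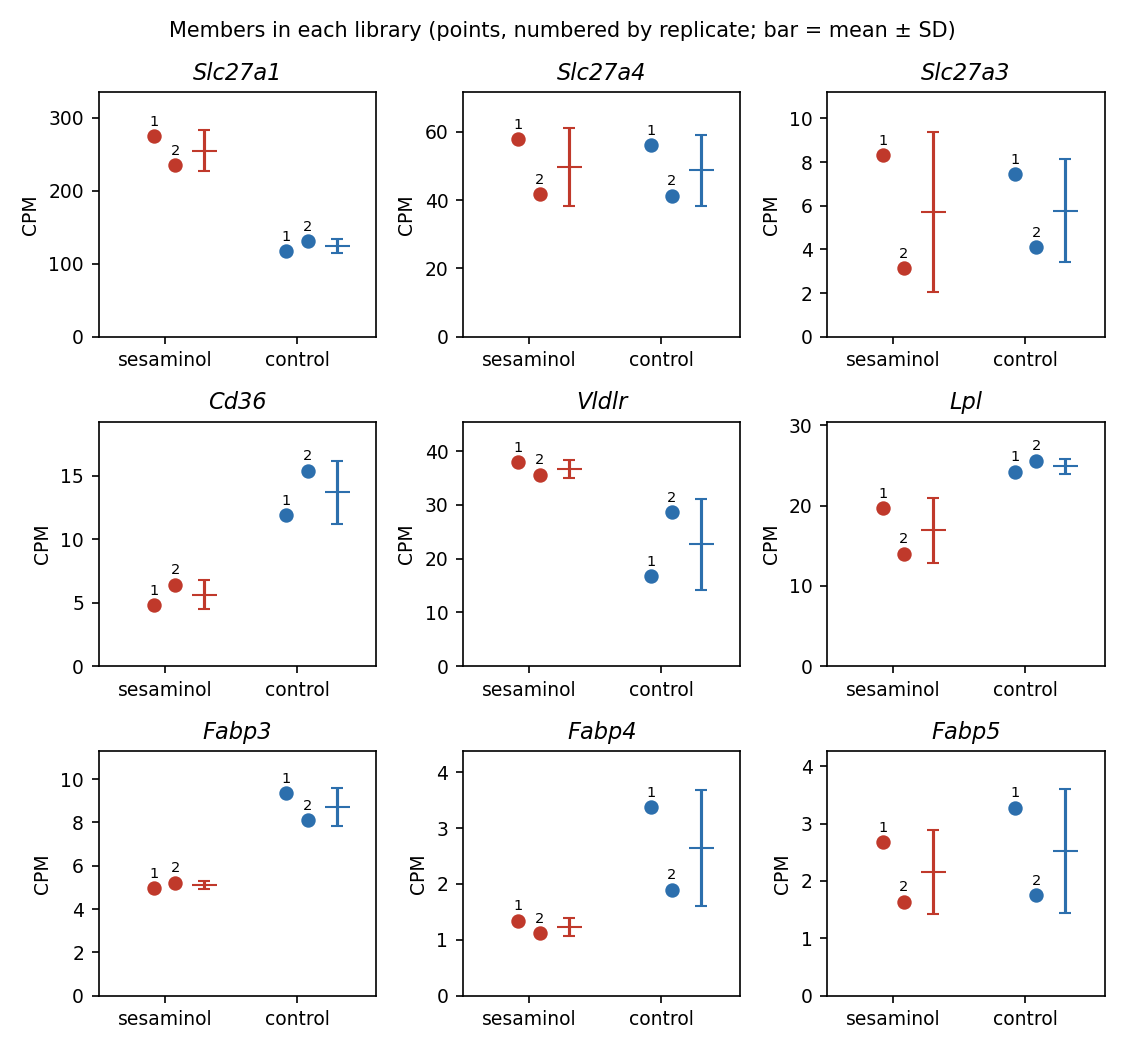
CPM (vertical axis, from 0) of the 9 members in each library, sesaminol in red and control in blue, numbered by replicate, with the mean ± SD (n = 2) beside them. Slc27a1 was at 275 and 235 CPM with sesaminol and at 117 and 131 CPM in controls, whereas the libraries of Slc27a3, Slc27a4 and Fabp5 overlapped between groups.

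The libraries held 10283135 to 24362899 counts. Sesaminol replicate 2 stood apart, with 1.44% of its counts on mitochondrial genes (95% Wilson interval 1.439 to 1.449, for counting error only), against 3.36% (3.35 to 3.368) in sesaminol replicate 1 and 2.95% to 3.06% in the controls. Of 8 skeletal muscle markers 6 fell (edgeR), and their summed level was 7161 and 5442 CPM with sesaminol, against 13784 and 13656 CPM in controls. The summed level of 7 adipocyte markers other than Fabp4 was 3.75 and 4.47 CPM with sesaminol, against 6.75 and 5.77 CPM in controls. Only 2 of these 7 could be tested, and 0 rose or fell (edgeR). Macrophage markers, 8 in all, summed to 17.1 and 22.6 CPM with sesaminol and to 20.2 and 16.9 CPM in controls, and C1qa had 0 counts in every library. Most of that sum was Csf1r, whose value is uncertain because it shares 873 exon bases with Hmgxb3, a gene with 354% of its count. The 8 endothelial markers summed to 10.2 and 15.8 CPM with sesaminol and to 14.5 and 10.9 CPM in controls. The part of these differences in the members' values was not tested, and in such bulk samples fewer cells of a type and less RNA per cell cannot be told apart.

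Sequences upstream of the start are shown for the 2 members that passed. They are the 250 bases before a RefSeq transcription start (GRCm38.p6), at chr5:17835897-17836146 on the minus strand for Cd36 and at chr8:71568621-71568870 on the plus strand for Slc27a1. Capitals mark every match, on either strand, to 5 short motifs: AGGTCA, the core that nuclear receptors such as PPARs recognise, CAGCTG, an E-box of the kind bound by myogenic factors, CCAAT, a box of many promoters, TATAAA, the classical TATA box, and ACGTG, the core of the hypoxia response element.
Cd36: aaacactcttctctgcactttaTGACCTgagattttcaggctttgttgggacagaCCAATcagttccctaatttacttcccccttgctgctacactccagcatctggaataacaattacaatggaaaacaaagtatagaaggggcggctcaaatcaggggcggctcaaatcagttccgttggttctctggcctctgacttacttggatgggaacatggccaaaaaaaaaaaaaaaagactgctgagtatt
Slc27a1: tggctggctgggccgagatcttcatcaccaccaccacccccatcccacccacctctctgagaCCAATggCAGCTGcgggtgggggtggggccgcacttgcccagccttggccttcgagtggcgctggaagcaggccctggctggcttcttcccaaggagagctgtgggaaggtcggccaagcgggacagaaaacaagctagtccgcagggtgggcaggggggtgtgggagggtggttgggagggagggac
The Cd36 window held 1 match to AGGTCA, read on the opposite strand as TGACCT, and 1 to CCAAT, and it was 43.2% G and C with 3 CpG sites. The Slc27a1 window held 1 match to CCAAT and 1 to CAGCTG, which do not overlap, and it was 66.4% G and C with 8 CpG sites. The Slc27a3 window and the Vldlr window from 27216770 also held 1 match each to CCAAT and to CAGCTG, and neither gene passed the test. Among 32851 such windows of all genes, AGGTCA was found in 14%, CAGCTG in 13%, CCAAT in 33.8%, TATAAA in 12.4% and ACGTG in 16.6%, and the median window was 52.4% G and C with 6 CpG sites. The Cd36 window lies inside the span of the gene in GENCODE M21, which has transcripts that start further upstream, up to 17888801. Slc27a1 has 3 RefSeq starts and the other 2 windows, from 71569347 and 71570344, held 0 matches and 3 matches. Those 3 were 1 to CCAAT and 2 to ACGTG, which overlap on opposite strands. The matches are letters in a window and were not tested as binding sites, and the count table does not say which start was used.

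Of the 3 fatty acid transport proteins tested, 1 rose and 2 did not pass. Slc27a1 (ENSMUSG00000031808, chromosome 8, 71568882 to 71587302, plus strand, GRCm38) averaged 255 ± 28.3 CPM with sesaminol and 124 ± 9.61 CPM in controls (SD, n = 2 each), from 4106 and 6301 counts with sesaminol and 1178 and 1788 counts in controls. This was a rise of 1.04 ± 0.18 (SE) on the log2 scale, or 2.06-fold (95% interval of the log2 value 0.63 to 1.45; edgeR adjusted p = 0.0112). The fold lay between 1.84 and 2.23 whichever library was left out, but the call was lost without control replicate 1 (edgeR adjusted p = 0.265) or control replicate 2 (0.151), where the lone control was assumed to vary like the sesaminol pair. Over all genes tested edgeR called 22.7% without sesaminol replicate 1 and 15.1% without sesaminol replicate 2, against 2.46% and 2.18% without control replicate 1 and 2.

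Slc27a4 (chromosome 2, 29802634 to 29817522, GRCm38), a transport protein best known from intestine and skin, had 57.9 and 41.8 CPM in sesaminol replicates 1 and 2, against 56.1 and 41.3 CPM in control replicates 1 and 2. The spread within each group was larger than the distance between the group means. Its log2 fold change was 0.03 ± 0.22 (SE), with a 95% interval from -0.46 to 0.52 (edgeR adjusted p = 0.972), an interval that does not reach the 1.04 measured for Slc27a1. Slc27a3 (chromosome 3, 90385239 to 90389938, GRCm38), the least abundant of the transport proteins tested, had 8.3 and 3.13 CPM with sesaminol, against 7.45 and 4.09 CPM in controls. Its log2 fold change was -0.02 with a wide interval, from -1.16 to 1.11 (edgeR adjusted p = 0.991), which leaves room for a change of the size seen in Slc27a1 in either direction. The difference between the members' fold changes was not itself tested.

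The other 3 genes of this family, Slc27a2, Slc27a5 and Slc27a6, known mainly from liver and, for Slc27a6, heart, were too low to test. Slc27a6 had 4 and 30 counts with sesaminol, against 6 and 4 counts in controls. Slc27a5 had 2 and 15 counts with sesaminol and 2 and 2 counts in controls, and Slc27a2 had 0 and 8 counts with sesaminol and 0 counts in each control. The value of Slc27a2 is uncertain because it shares 419 exon bases with Gm26697, a gene with 675% of its count. For a count of 0, 3 counts is the limit, which is 0.201 CPM in sesaminol replicate 1, 0.298 CPM in control replicate 1 and 0.219 CPM in control replicate 2. All 3 had their highest count in sesaminol replicate 2, the deepest library, in which 31253 genes had a count against 26531 to 27336 in the others. In scaled values Slc27a6 was also highest there, at 1.12 CPM, against 0.268 CPM in sesaminol replicate 1 and 0.596 and 0.292 CPM in controls. Slc27a5 had 0.134 and 0.559 CPM with sesaminol and 0.199 and 0.146 CPM in controls. The part of depth in these values was not tested.

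Per kilobase of exon, Slc27a1 stood at 47.1 and 40.3 CPM per kilobase with sesaminol and at 20 and 22.4 in controls, ahead of Slc27a4 with 13.1 and 9.47 with sesaminol and 12.7 and 9.37 in controls. Slc27a3 followed with 3.23 and 1.22 with sesaminol and 2.9 and 1.59 in controls. Slc27a1 made up 74.2% and 79% of the summed level of these 3 genes in the sesaminol libraries, against 56.2% and 67.1% in the controls. Over all 9 members its share was 60.8% and 62.3% with sesaminol, against 35.8% and 41.7% in controls. These shares do not overlap between groups, and they carry no test.

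**Figure D2:**
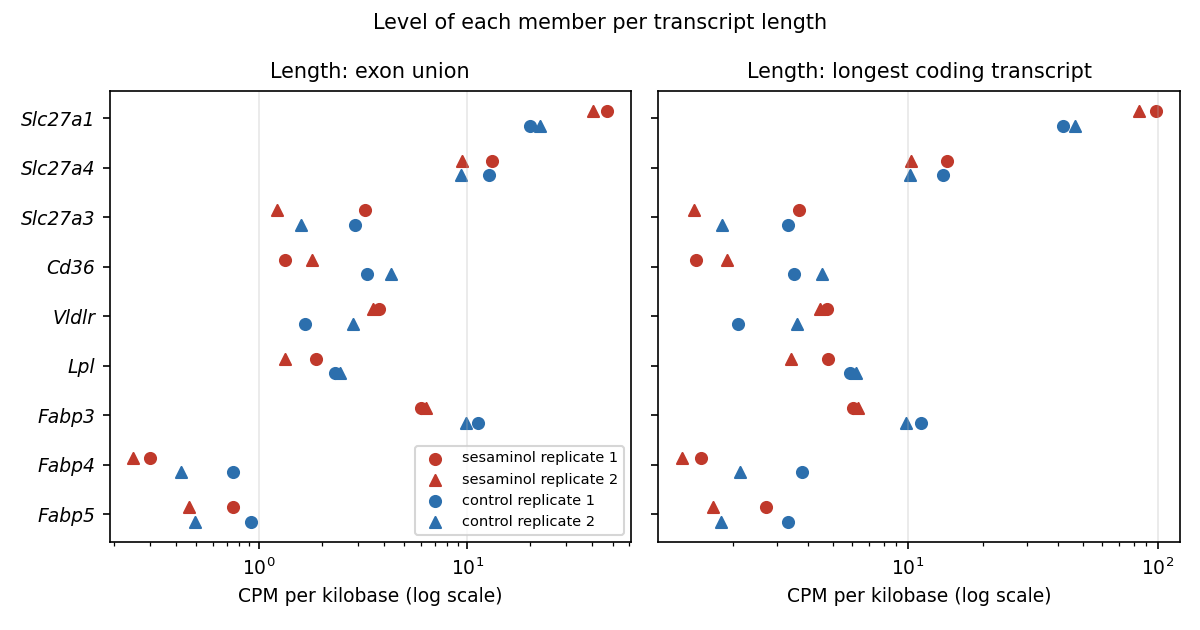
Level of each member in CPM per kilobase (logarithmic axis), in sesaminol libraries (red) and control libraries (blue), with the length taken as all annotated exons (left) or as the longest protein-coding transcript (right). Slc27a1 led with both lengths, followed by Slc27a4 and Fabp3, and the levels of Fabp4 and Fabp5 were higher when retained introns were left out of the length.

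Cd36 (ENSMUSG00000002944, chromosome 5, 17781690 to 17888801, minus strand, GRCm38) averaged 5.62 ± 1.13 CPM with sesaminol and 13.7 ± 2.47 CPM in controls (SD, n = 2 each). It rested on 72 and 172 counts with sesaminol and on 120 and 211 counts in controls. It fell by 1.28 ± 0.28 (SE) on the log2 scale, a 2.42-fold lower level (95% interval of the log2 value -1.91 to -0.64; edgeR adjusted p = 0.0315). It was 2.12-fold to 2.83-fold lower whichever library was left out, and the call was lost without control replicate 1 (edgeR adjusted p = 0.0643) or control replicate 2 (0.385), and when libraries were scaled by total counts alone (0.0708). Per kilobase of exon it was the seventh of the 9 members with sesaminol, at 1.34 and 1.79 CPM per kilobase, and the fourth in controls, at 3.32 and 4.29.

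The receptor and the lipase that serve lipoproteins lay on opposite sides of the controls without passing the test. Vldlr (ENSMUSG00000024924, chromosome 19, 27216484 to 27254231, GRCm38), which encodes the VLDL receptor, had 37.9 and 35.6 CPM with sesaminol, against 16.7 and 28.6 CPM in controls. The sesaminol libraries were close together and both above the controls. Its log2 fold change was 0.69 ± 0.24 (SE), with a 95% interval from 0.14 to 1.24 (edgeR unadjusted p = 0.0196, adjusted p = 0.167). It was 1.27-fold higher without control replicate 1 and 2.19-fold higher without control replicate 2. Without sesaminol replicate 1 or 2 it was 1.51-fold and 1.66-fold higher. Lpl (ENSMUSG00000015568, chromosome 8, 68880491 to 68907448, GRCm38), which encodes lipoprotein lipase, had 19.7 and 14 CPM with sesaminol, against 24.2 and 25.6 CPM in controls. Both sesaminol libraries were below both controls, and sesaminol replicate 2 was the lowest. Its log2 fold change was -0.57 ± 0.21 (SE), with a 95% interval from -1.06 to -0.08 (edgeR unadjusted p = 0.0262, adjusted p = 0.196). It was 1.26-fold lower without sesaminol replicate 2 and 1.83-fold lower without sesaminol replicate 1.

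None of the 3 fatty acid binding proteins passed, and Fabp4 and Fabp5 had the lowest levels per kilobase of exon of the 9 members. That order changed with the longest coding transcript as the length. Fabp3 (ENSMUSG00000028773, chromosome 4, 130308595 to 130315463, GRCm38), the form of heart and skeletal muscle, had 4.95 and 5.22 CPM with sesaminol, against 9.34 and 8.11 CPM in controls. The groups were tight and apart, from 74 and 140 counts with sesaminol and 94 and 111 counts in controls. The log2 fold change of -0.77 ± 0.29 (SE) missed the threshold (95% interval -1.44 to -0.11, edgeR unadjusted p = 0.0274, adjusted p = 0.2). The last 81 of its 823 exon bases lie under an exon of Zcchc17, a gene on the opposite strand with 45.9 and 38.1 CPM with sesaminol and 46.6 and 38.1 CPM in controls. Whether reads were counted by strand is not given, so some reads counted for Fabp3 may be from Zcchc17, whose own log2 fold change was -0.01 ± 0.18 (SE; edgeR adjusted p = 0.986).

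Fabp4 and Fabp5 lie near each other on chromosome 3, at 10204088 to 10208576 and 10012548 to 10016607 (GRCm38). Fabp4, the adipocyte form, had 1.34 and 1.12 CPM with sesaminol, against 3.38 and 1.9 CPM in controls, from 20 and 30 counts with sesaminol and 34 and 26 counts in controls. Its log2 fold change of -1.09 ± 0.55 (SE) has an interval that spans 0, from -2.35 to 0.16 (edgeR adjusted p = 0.357). The adipocyte hormone gene Adipoq had 0.536 and 0.373 CPM with sesaminol and 0.596 and 0.876 CPM in controls. It rested on 8 and 10 counts with sesaminol and 6 and 12 counts in controls. Another adipocyte marker, Cidea, went the other way, with 0.402 and 1.27 CPM with sesaminol and 0.199 and 0.584 CPM in controls. These CPM are not divided by length and do not rank the genes. Fabp5, the form first known from epidermis, had 2.68 and 1.64 CPM with sesaminol, against 3.28 and 1.75 CPM in controls, and the groups overlapped. Its log2 fold change was -0.22 ± 0.54 (SE), with an interval from -1.44 to 1 (edgeR adjusted p = 0.91).

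Among the 3 binding proteins Fabp3 made up 85.2% and 89.9% of the summed level per kilobase with sesaminol and 87.2% and 91.5% in controls. With the longest coding transcript as the length these shares were 58.9% and 68.5% with sesaminol and 61.5% and 71.7% in controls, since the exons of Fabp4 and Fabp5 include retained introns. The groups overlapped with either length. Of 15 genes listed for this family and its retinoid-binding relatives, 14 symbols matched and 4 could be tested, of which 0 passed in edgeR, DESeq2 or limma-voom. The unadjusted p was under 0.05 for 1 of them in each tool, Fabp3, and the tools used the same 4 libraries. In edgeR 17.9% of all genes tested had an unadjusted p under 0.05. Fabp3 was 1.6-fold to 1.84-fold lower whichever library was left out. Crabp2, a retinoic acid carrier, had 58.9 and 49.2 CPM with sesaminol and 52.4 and 45.9 CPM in controls. Fabp1, Fabp2, Fabp7 and Fabp9, forms of liver, intestine, brain and testis, had 0 counts in every library.

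**Figure D3:**
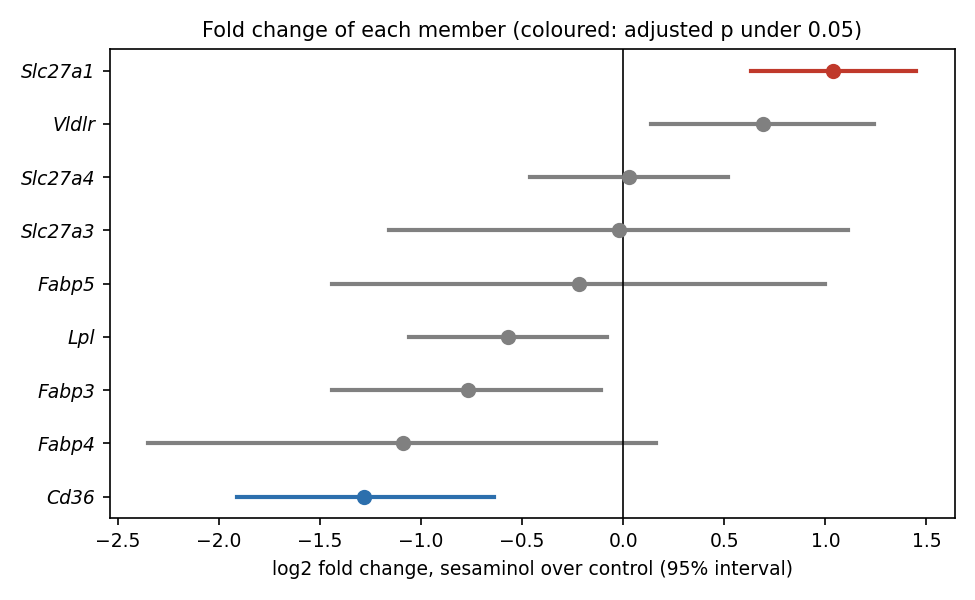
Log2 fold change of each member, sesaminol over control (horizontal axis), with its 95% interval from the edgeR fit, in red or blue where the adjusted p was under 0.05. Slc27a1 at 1.04 and Cd36 at -1.28 are coloured, and the intervals of Vldlr, Lpl and Fabp3 exclude 0 without passing the adjusted threshold.

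The order of levels changed between groups below the leading genes. With sesaminol the order per kilobase of exon was Slc27a1, Slc27a4, Fabp3, Vldlr, Slc27a3, Lpl, Cd36, Fabp5 and Fabp4. In controls it was Slc27a1, Slc27a4, Fabp3, Cd36, Lpl, Vldlr, Slc27a3, Fabp5 and Fabp4. In controls Slc27a4 (11 ± 2.37) and Fabp3 (10.6 ± 1.06) did not differ beyond their spread, nor did Lpl (2.38 ± 0.0897), Vldlr (2.25 ± 0.839) and Slc27a3 (2.25 ± 0.924), nor Fabp5 (0.705 ± 0.302) and Fabp4 (0.588 ± 0.233; CPM per kilobase, SD, n = 2). With sesaminol Slc27a3 (2.23 ± 1.42), Lpl (1.61 ± 0.383) and Cd36 (1.56 ± 0.313) did not differ beyond theirs. The lower places depended on the length used. Per kilobase of the longest coding transcript Fabp4 had rank 6 in controls (2.94 ± 1.17) and Fabp5 had rank 7 with sesaminol (2.19 ± 0.744).

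**Figure D4:**
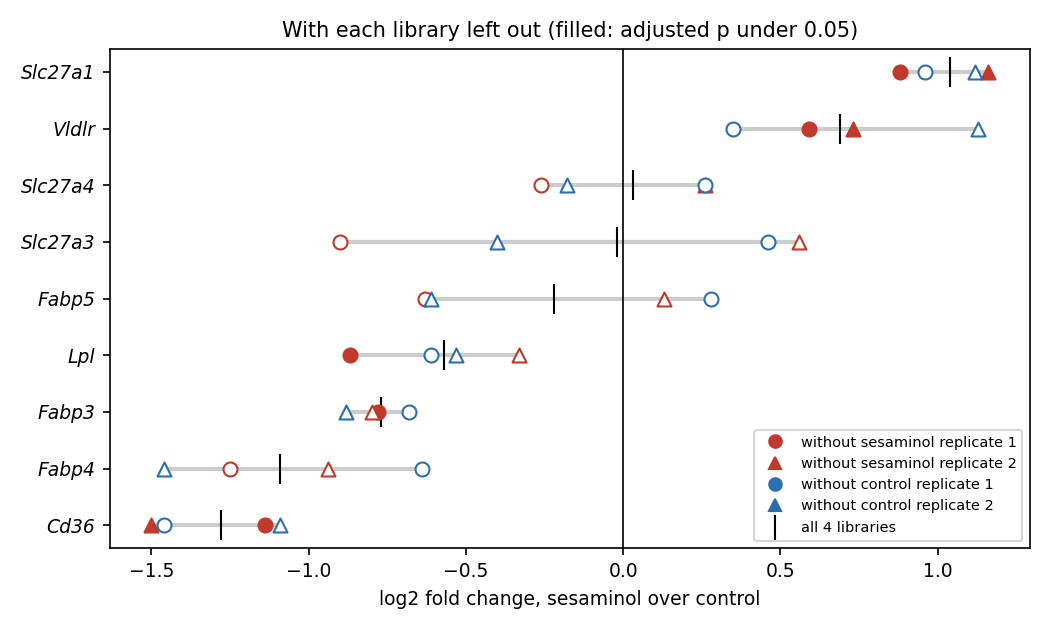
Log2 fold change of each member with all 4 libraries (black bar) and with each library left out in turn, red where a sesaminol library and blue where a control library was left out, filled where the edgeR adjusted p was under 0.05. Slc27a1 and Cd36 kept their direction throughout and were filled only where a sesaminol library was left out, and Slc27a3, Slc27a4 and Fabp5 lay on both sides of 0. With a library left out, the lone library of its group was assumed to vary like the pair of the other group.

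Genes that act with the members were read from lists chosen for their textbook roles. Over all genes tested, with all 4 libraries, edgeR called 5.95%, 2.72% as rises and 3.24% as falls. The counts of each list below stand beside these shares. In the list for maturation, anchoring and inhibition of lipoprotein lipase, 12 of 19 genes could be tested, 2 rose and 10 did not pass. Angptl4, a secreted inhibitor of the lipase, had 71.8 and 42.9 CPM with sesaminol, against 24.7 and 25.7 CPM in controls, and rose 2.27-fold (edgeR adjusted p = 0.0228). Sdc4, a heparan sulfate proteoglycan of the cell surface, had 199 and 201 CPM with sesaminol, against 106 and 117 CPM in controls, and rose 1.8-fold (edgeR adjusted p = 0.0196). Lmf1, which folds the lipase, had 55.4 and 37.8 CPM with sesaminol and 45.5 and 39.9 CPM in controls (edgeR adjusted p = 0.851). Gpihbp1, which anchors the lipase on capillary endothelium, had 2 counts in control replicate 1 and 0 in the other libraries. Without control replicate 1 or 2 neither call held (edgeR adjusted p = 0.0662 and 0.0629 for Angptl4 and 0.465 and 0.277 for Sdc4).

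Among Vldlr, its relatives and their partners, 20 of 21 genes could be tested, and 1 rose and 19 did not pass, with a median log2 fold change of 0.27. Lrp8, the apolipoprotein E receptor most like Vldlr and its partner as a reelin receptor, had 20.1 and 23.3 CPM with sesaminol, against 3.18 and 6.57 CPM in controls, and rose 4.37-fold (edgeR adjusted p = 0.00637). The call held with each library left out (edgeR adjusted p at most 0.00765, a fold of 3.28 to 6.79). Lrp1, a large scavenging receptor, had 1367 and 1431 CPM with sesaminol, against 875 and 1200 CPM in controls (edgeR adjusted p = 0.447). Without sesaminol replicate 1 or 2 the list held 7 and 5 rises and 1 fall each, beside 9.36% and 8.06% rises over all genes tested, and without control replicate 1 or 2 it held 1 rise each (edgeR).

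Among Cd36, its relatives and genes of caveolae and vesicle traffic, all 23 could be tested, 2 rose, 3 fell with Cd36 counted and 18 did not pass. Cav2, caveolin 2, had 23.4 and 32.8 CPM with sesaminol, against 11.1 and 10.4 CPM in controls (2.62-fold rise, edgeR adjusted p = 0.00807). Tbc1d4 and Tbc1d1 are related Rab GTPase-activating proteins that hold transporter vesicles back in muscle. Tbc1d4 rose 2.14-fold, with 16.7 and 17.9 CPM with sesaminol against 7.55 and 8.62 CPM in controls. Tbc1d1 was 1.88-fold lower, with 78.7 and 65.8 CPM with sesaminol against 130 and 142 CPM in controls (edgeR adjusted p = 0.0231 for Tbc1d4 and 0.0159 for Tbc1d1). Vamp5, a vesicle SNARE of muscle, had 45.7 and 51.5 CPM with sesaminol, against 102 and 99.8 CPM in controls (2.07-fold lower, edgeR adjusted p = 0.00649). The Cd36 relative Scarb1 had 34.3 and 26.2 CPM with sesaminol and 29 and 24.1 CPM in controls, and Got2, which also serves as a plasma membrane fatty acid binding protein, had 185 and 128 CPM with sesaminol and 156 and 140 CPM in controls. Cav2 and Vamp5 were still called without control replicate 1 or 2. Tbc1d4 (edgeR adjusted p = 0.251 and 0.143) and Tbc1d1 (0.0848 and 0.201) were not.

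Of 19 acyl-CoA synthetase and acyl-CoA binding genes 17 could be tested, 1 fell and 16 did not pass. Acsl6, a long-chain acyl-CoA synthetase, had 19.7 and 19.5 CPM with sesaminol, against 36.9 and 36.7 CPM in controls (1.88-fold lower, edgeR adjusted p = 0.0142). Leaving out control replicate 1 or 2 raised that p to 0.122 or 0.128 (edgeR). An exon of Gm12224, whose count was 41.2% of that of Acsl6, overlaps it, so its value is uncertain. Acsl1, the main long-chain synthetase of muscle and fat, had 32.9 and 20.1 CPM with sesaminol and 31.6 and 35.6 CPM in controls (edgeR adjusted p = 0.531).

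Of 24 transcription factors known to act on such genes 23 could be tested, 1 rose, 2 fell and 20 did not pass. Rxra, the partner of the PPARs on DNA, had 84.4 and 97.9 CPM with sesaminol, against 52.6 and 60 CPM in controls (1.62-fold rise, edgeR adjusted p = 0.0464). Leaving out control replicate 1 or 2 raised that p to 0.633 or 0.314 (edgeR). The PPAR genes themselves did not pass. Ppard had 78.7 and 62.9 CPM with sesaminol and 51.2 and 50.8 CPM in controls, Pparg 16.1 and 12.2 CPM with sesaminol and 10.7 and 10.9 CPM in controls, and Ppara 0.804 and 1.23 CPM with sesaminol and 1.49 and 1.17 CPM in controls (edgeR adjusted p = 0.183, 0.491 and 0.861). Mef2c, an activator of muscle genes, had 12.1 and 12.9 CPM with sesaminol, against 86 and 114 CPM in controls, a 7.98-fold lower level (edgeR adjusted p = 0.00041). Klf5, a factor of adipocyte and muscle differentiation, had 40.3 and 64.2 CPM with sesaminol, against 112 and 133 CPM in controls (2.34-fold lower, edgeR adjusted p = 0.0159, and 0.0541 without control replicate 2).

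**Figure D5:**
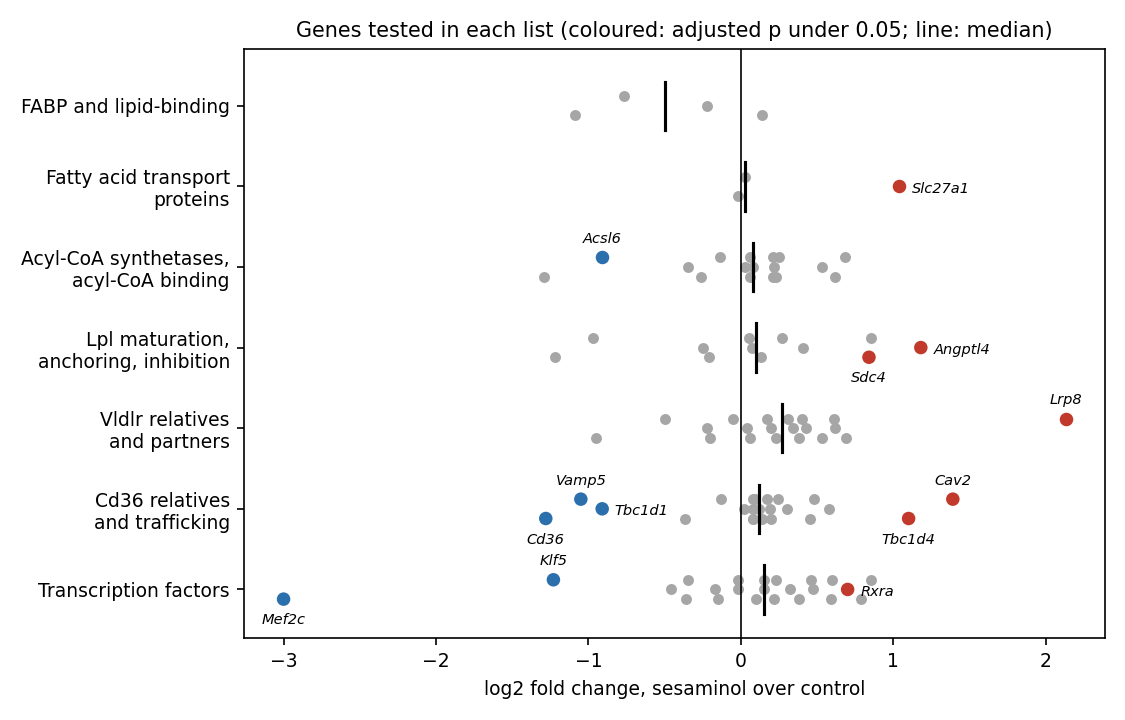
Log2 fold change, sesaminol over control (horizontal axis), of every tested gene in 7 lists, red for a rise and blue for a fall at an edgeR adjusted p under 0.05, grey otherwise, with the list median as a black line. The list medians lay between -0.50, for the FABP family, and 0.27, for Vldlr and its relatives.

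In the FABP list 3 of the 4 genes tested are members, and the other is Crabp2 (log2 fold change 0.14). With single libraries left out the list median ran from -0.80 to -0.13. Those fits tested 5 to 7 genes of the list, so the genes behind the median changed too.

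These counts moved with the libraries used. Over all genes tested edgeR called 0.786% as rises and 1.67% as falls without control replicate 1, and 0.847% and 1.33% without control replicate 2. The shares were 9.36% and 13.3% without sesaminol replicate 1, and 8.06% and 7.04% without sesaminol replicate 2. Without control replicate 1 or 2 fewer genes of the lipase, acyl-CoA, Cd36 and transcription factor lists passed than with all 4 libraries (edgeR). The list medians of the log2 fold change were then 0.22 and 0.04 for the lipase list and 0.11 and 0.18 for the acyl-CoA list. They were 0.11 and 0.14 for the Cd36 list and 0.14 and 0.25 for the transcription factors. Without sesaminol replicate 1 there were 3 rises and 2 falls in the lipase list, 1 and 2 in the acyl-CoA list, 5 and 4 in the Cd36 list and 3 and 5 among transcription factors. Without sesaminol replicate 2 there were 4 and 2, 1 and 1, 4 and 3, and 6 and 3 in the same lists.

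The genes whose pattern over the 4 libraries lay nearest to a member were found by the distance between log2 CPM values centred on each gene's mean, among 10723 protein-coding genes. Nearest to Slc27a1 were Vat1, Vegfb and Phex (distances 0.0594, 0.0931 and 0.115). Vegfb, a growth factor of the VEGF family, had 126 and 102 CPM with sesaminol, against 55.2 and 60.5 CPM in controls. Nearest to Cd36 were Erbb3, Adamts14 and Tmem182 (0.105, 0.115 and 0.131), of which Erbb3, a neuregulin receptor, had 30.7 and 41.4 CPM with sesaminol, against 76.9 and 92.8 CPM in controls. Nearest to Lpl were Arglu1, Chrnd and Ckap4, and nearest to Fabp3 were Sccpdh, Dusp27 and Als2cl. With 4 libraries many genes share such a pattern, and the distances are a description.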

How the data were processed

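Polyadenylated RNA of C2C12 cells was sequenced in 2 sesaminol and 2 control libraries. The authors deposited raw read counts per gene, not normalized. Per the submitters' processing notes FastQC, MultiQC, fastp, Picard, featureCounts and edgeR were used with GRCm38. For the aligner, strand setting and annotation release nothing is stated in the sources used here. Per library, 75.8% to 79.6% of the deposited counts between 1 and 12 were even numbers, so both reads of a pair may have been counted singly, and counting intervals and floors are then too narrow.

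Genes were filtered by filterByExpr (minimum count 10, minimum total 15), leaving 18998, scaled by TMM and tested with edgeR 4.0.16 in R 4.3.3 (glmQLFit, glmQLFTest, no covariates, two-sided, Benjamini-Hochberg over all genes, threshold 0.05). The standard error is the estimate over the square root of F. CPM used TMM library sizes. Lengths, positions and exon overlaps came from GENCODE M21 (GRCm38; 52403 of 52636 identifiers matched), and upstream windows from RefSeq (6 of 9 members matched, in 9 windows). The test was checked on simulated data. No libraries were duplicates: chi-square per degree of freedom was 39.1 between the sesaminol libraries, 6.3 between the controls and 41.1 to 70.3 between groups. Alternatives were other scalings, filters and tools (DESeq2 1.42.0, limma 3.58.1), the replicate block, each library left out, halved or thinned counts, no mitochondrial genes and other lengths; the coding length and the lists with libraries left out were added after seeing the data.

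The members and lists were chosen with earlier results of these data known. Named are the members, up to 6 passing genes of each of 7 lists, a few set genes and the 3 nearest genes of each member. A repeated symbol takes the identifier with most counts. Some listed genes are not reported here and were left out of the lists and their counts.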

Additional observations from a re-analysis of the deposited data

How the results depend on the processing

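Slc27a1 was called under all 11 alternatives that kept the 4 libraries (log2 fold change 1.00 to 1.10), and Cd36 under 10 of 11 (-1.30 to -1.19), the exception being library size alone (-1.19, edgeR adjusted p = 0.0708), where 1 member was called. Vldlr passed with no low-count filter (0.71, adjusted p = 0.0203) and with the replicate block (0.73, adjusted p = 0.0273). Slc27a3 had 0.00 with library size alone and with no filter, and Slc27a4 -0.01 with upper quartile scaling. Fabp4 was not tested at a minimum count of 30. Over all genes 1131 were called, 1913 with no filter and 1875 with the replicate block. The deviations of same-numbered libraries had a correlation of 0.0195, which cannot settle whether the libraries were paired. With each library left out, 452 to 4642 genes and 0 to 5 members were called, and the log2 fold changes ran from -1.50 to -1.09 for Cd36, 0.88 to 1.16 for Slc27a1, 0.35 to 1.13 for Vldlr, -0.87 to -0.33 for Lpl, -0.88 to -0.68 for Fabp3, -1.46 to -0.64 for Fabp4, -0.63 to 0.28 for Fabp5, -0.90 to 0.56 for Slc27a3 and -0.26 to 0.26 for Slc27a4. Among the lists, Vldlr and its relatives held 1 rise, 2 rises with DESeq2, and 4 rises and 1 fall with the replicate block. Over all 18998 genes tested the rises were 516, 641 with DESeq2 and 893 with the replicate block. The share of Slc27a1 in the summed level was 61.5% with sesaminol and 38.8% in controls, 71.3% and 49.6% with the longest transcript, and 72.4% and 50.4% with the longest coding transcript. The causes of these shifts were not tested. No member symbol was repeated, so summing identifiers gave no separate value. Depth limits Fabp4 and Fabp5 most, with 20 to 44 counts a library.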

Other observations

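In 4 of the 9 members, Slc27a3, Slc27a4, Fabp4 and Fabp5, the replicate 1 library was higher than the replicate 2 library in both groups. The same held for 26.6% of all genes tested. This was noticed after the values were seen, and nothing in the labels says that the numbers pair the libraries. Slc27a4 had 57.9 and 56.1 CPM in sesaminol and control replicate 1, and 41.8 and 41.3 CPM in sesaminol and control replicate 2. The genes nearest to Slc27a3 in pattern were Krt19, Aurka and Cdk1, of which the mitotic kinase gene Cdk1 had 18.2 and 7.38 CPM with sesaminol, against 16.7 and 11.8 CPM in controls (edgeR adjusted p = 0.906).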
